A study of Mus musculus with 12 samples.

Results

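The nuclear genes of oxidative phosphorylation were followed in the mouse neural progenitor line C17.2 during treatment with T3 (triiodothyronine, the active thyroid hormone). Members were the genes whose symbol begins with Nduf, Uqcr, Atp5 or Cox4 to Cox8, together with Cyc1 and the Sdha to Sdhd genes, and 85 of the 12774 symbols in the deposited table met this rule. By name they fell into 40 genes of complex I, 4 of complex II, 9 of complex III, 15 of complex IV and 17 of complex V. The cells came as a pair of lines. C17.2b stably expressed a tagged thyroid hormone receptor beta, and C17.2a a tagged receptor alpha. After 24 h without serum, each line received T3 at 1e-07 M or nothing, and polyA RNA was taken after 6, 12 or 24 h. Each combination of line, treatment and time gave 1 library of sequence tags, so no group has a replicate, and the 12 libraries form 6 pairs, each with and without T3.

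Oxidative phosphorylation makes ATP in the inner mitochondrial membrane. Complexes I and II pass electrons from NADH and succinate to ubiquinone, complex III passes them on to cytochrome c, and complex IV (cytochrome c oxidase) to oxygen. Protons pumped by complexes I, III and IV drive the ATP synthase, complex V. Thyroid hormone is known to raise mitochondrial respiration in many tissues, through nuclear receptors that bind DNA next to target genes and through coactivators of mitochondrial biogenesis. Some subunits of complex IV come in tissue isoforms: Cox7a1, Cox6a2 and Cox8b are the forms of heart and skeletal muscle.

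Values are RPM as deposited, which count tags after every library has been brought to the same sum. The implied depth ran from 7.1e+06 to 1.9e+07 tags per library, at which 3 tags correspond to 0.158 to 0.422 RPM. RPM values of different genes were not compared with each other, since the number of tags a transcript yields differs between genes. Neural progenitor markers were present: Vim was at 1112 to 2619 RPM in T3 libraries and 1928 to 4941 RPM in untreated libraries, and Sox2 at 62.0 to 107.8 RPM in T3 libraries and 103.9 to 305.9 RPM in untreated libraries. Collagen genes listed as fibroblast markers were high too, with Col1a1 at 747.2 to 5353 RPM in T3 libraries and 914.3 to 3778 RPM in untreated libraries. The microglial marker Cx3cr1 reached 0.18 RPM in T3 libraries and 0.42 RPM in untreated libraries, and no endothelial marker on the list was in the table. The 24 h libraries stood apart from the earlier ones, and within them the C17.2a pair differed most: 46.9% of the 10577 genes tested differed by more than 1.5-fold between its T3 and its untreated library, against 11.2% to 17.1% in the other 5 pairs. For the shared T3 response, the counts, several named members and the sums by complex are also given without them, while results at 24 h rest on them.

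Promoter sequences from RefSeq (GRCm38.p6, 250 bases before to 50 after the annotated start) were matched to 70 of the 85 members, in 76 windows. Those of Cox7a1 and Atp5j are shown because they were the members that rose with T3. That of Uqcr11 is shown because it rose with time without T3 and holds both motifs marked in capitals. That of Cox6b1 is shown because it fell with time. Capitals mark the motifs GCGCATGCG, the core of the site of NRF1, a regulator of respiratory genes, and CCGGAAGT, the core of ETS family sites including that of GABPA, on either strand.
Cox7a1 (chr7:30183921-30184220, plus strand): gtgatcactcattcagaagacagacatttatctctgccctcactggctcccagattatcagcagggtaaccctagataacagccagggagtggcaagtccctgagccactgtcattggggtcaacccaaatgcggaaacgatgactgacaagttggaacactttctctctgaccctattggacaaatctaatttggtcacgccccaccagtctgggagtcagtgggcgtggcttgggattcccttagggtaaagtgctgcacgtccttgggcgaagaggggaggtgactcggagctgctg
Atp5j, upstream window (chr16:84835576-84835875, minus strand): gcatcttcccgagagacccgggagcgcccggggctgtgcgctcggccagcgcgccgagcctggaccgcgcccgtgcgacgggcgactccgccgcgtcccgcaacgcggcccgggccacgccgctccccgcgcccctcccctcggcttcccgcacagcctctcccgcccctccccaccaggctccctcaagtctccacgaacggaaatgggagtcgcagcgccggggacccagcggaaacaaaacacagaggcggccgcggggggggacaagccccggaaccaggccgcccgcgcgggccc
Atp5j, downstream window (chr16:84834927-84835226, minus strand): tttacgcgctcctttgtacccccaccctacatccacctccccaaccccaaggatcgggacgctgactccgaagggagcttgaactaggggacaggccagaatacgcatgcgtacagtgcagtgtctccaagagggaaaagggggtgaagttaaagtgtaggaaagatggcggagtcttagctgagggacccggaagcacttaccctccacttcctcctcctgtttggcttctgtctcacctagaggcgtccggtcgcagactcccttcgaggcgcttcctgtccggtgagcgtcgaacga
Uqcr11 (chr10:80406772-80407071, minus strand): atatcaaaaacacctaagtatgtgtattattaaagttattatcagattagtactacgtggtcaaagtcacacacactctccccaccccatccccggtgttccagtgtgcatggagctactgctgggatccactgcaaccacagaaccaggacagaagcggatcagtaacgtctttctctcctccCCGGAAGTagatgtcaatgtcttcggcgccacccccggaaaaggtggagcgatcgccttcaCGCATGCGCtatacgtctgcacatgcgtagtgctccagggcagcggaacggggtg
Cox6b1 (chr7:30626065-30626364, minus strand): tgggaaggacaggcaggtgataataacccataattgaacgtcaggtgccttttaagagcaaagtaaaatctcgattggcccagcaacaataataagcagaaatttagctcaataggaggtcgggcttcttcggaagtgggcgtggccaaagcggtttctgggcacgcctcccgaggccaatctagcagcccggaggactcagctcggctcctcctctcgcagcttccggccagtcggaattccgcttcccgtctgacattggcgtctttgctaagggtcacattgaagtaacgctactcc
The Uqcr11 window holds CCGGAAGT on its own strand beginning 66 bases before the start and GCGCATGCG on the other strand beginning 5 bases before it. Neither exact string is in the Cox7a1, Atp5j or Cox6b1 windows, and sequences close to these strings were not searched. Over the members, GCGCATGCG was in 9 of 76 windows (11.8%), against 575 of 32851 promoter windows of all genes (1.75%), and CCGGAAGT was in 5 of 76 (6.58%), against 3.89% of all. The windows with GCGCATGCG belong to Atp5g2, Atp5k, Atp5l, Cox6a1, Ndufa11, Ndufa8, Ndufaf4, Uqcr11 and Uqcrc1. A thyroid hormone response element searched as 2 copies of AGGTCA on the same strand with 4 bases between them was in 0 of the members' windows and in 0.0152% of all windows. With 5 matches in 32851 windows, this exact string is too rare for its absence from 76 windows to be read. The matches in the Uqcr11 window do not overlap each other, and a match is a description of the letters in these windows only.

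With T3, 2 members rose, Cox7a1 and Atp5j, and 0 fell. Cox7a1, the muscle form of subunit 7a of cytochrome c oxidase, was the member with the largest change. In C17.2b it had 2.87, 5.76 and 55.93 RPM after 6, 12 and 24 h of T3, against 0.31, 0.09 and 1.76 RPM in the untreated cells of the same times. In C17.2a it had 2.39, 3.40 and 18.85 RPM after 6, 12 and 24 h of T3, against 0.39, 0.53 and 3.37 RPM in untreated cells. The T3 library was the higher of every pair, but the groups overlapped across times, since untreated C17.2a cells at 24 h were above the T3 cells of either line at 6 h. The untreated C17.2b value at 12 h is below the level of 3 tags, 0.271 RPM in that library. In the limma fit over the 6 pairs, on log2(RPM + 1), the shared log2 fold change of Cox7a1 was 2.26 (SE 0.37, adjusted p 0.00737), which is 4.79-fold. This scale understates the change of a gene with so few tags in untreated cells. In the 4 pairs of 6 and 12 h alone it was 1.75. The call was lost with a pseudocount of 5 (log2 fold change 1.23, adjusted p 0.0639 in limma). Cox7a1 met the limit of 1 RPM in 3 libraries only through its T3 libraries, since only the 24 h untreated libraries reached 1 RPM. It was therefore not tested in the untreated fits, and its shared call held in the fit without this limit.

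Atp5j encodes coupling factor 6, a part of the peripheral stalk that holds the head of the ATP synthase still. In C17.2b it had 11.39, 6.91 and 57.33 RPM after 6, 12 and 24 h of T3, against 10.00, 3.86 and 21.97 RPM in untreated cells. In C17.2a it had 6.16, 13.80 and 90.41 RPM after 6, 12 and 24 h of T3, against 4.18, 6.66 and 37.66 RPM in untreated cells. Again the T3 library was above its untreated partner in all 6 pairs, and both lines were highest at 24 h, with and without T3. The differences of log2(RPM + 1) were 0.17, 0.70 and 1.34 in C17.2b and 0.47, 0.95 and 1.24 in C17.2a at 6, 12 and 24 h. The shared log2 fold change was 0.81 (SE 0.17, adjusted p 0.0228 in limma), or 1.76-fold. It did not pass in limma without the pair block (adjusted p 0.120), with a pseudocount of 5 (0.0509), or when the C17.2b 12 h (0.0768), C17.2b 24 h (0.0808) or C17.2a 12 h pair (0.0877) was left out. It passed when the C17.2a 24 h pair was left out, with 0.73.

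**Figure D1:**
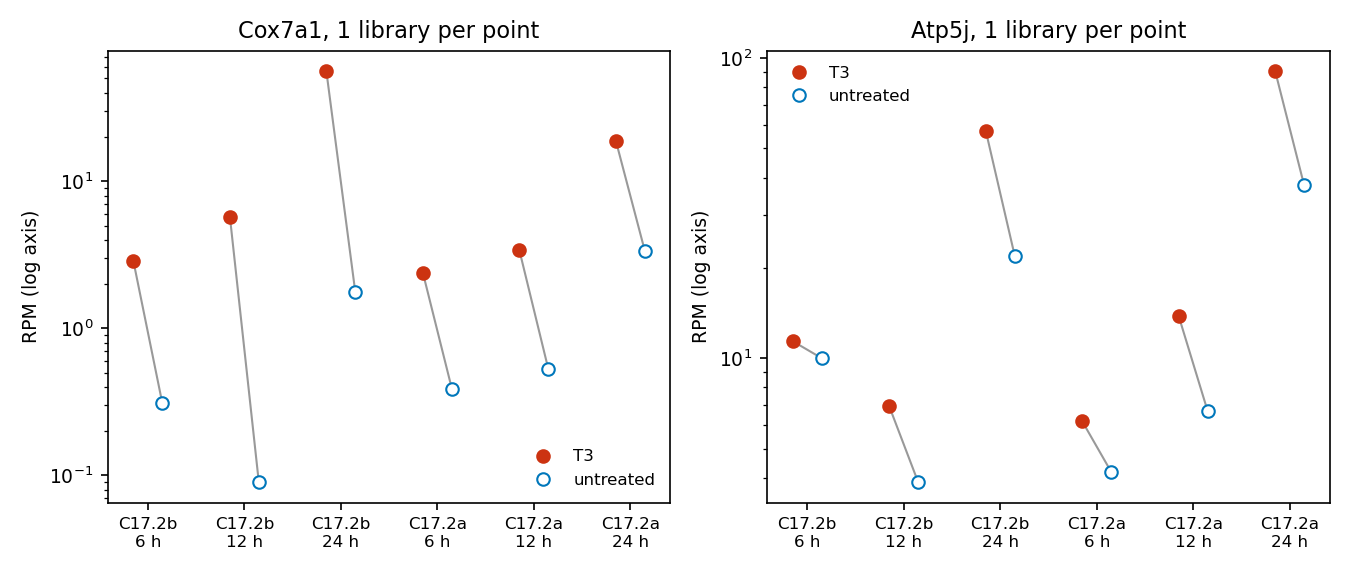
RPM of Cox7a1 (left) and Atp5j (right) on log axes in each of the 12 libraries, by line and time. Filled points are T3 libraries, open points the untreated library of the same line and time, and a grey line joins each pair: the T3 point is the higher in all 6 pairs for both genes, and for Atp5j both points of the 24 h pairs lie above all earlier ones.

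These were 2 of the 80 members with at least 1 RPM in 3 libraries or more, which is 2.50%, against 6.45% of the 10577 genes tested that passed in either direction. The share of all genes moved with the pairs used: it was 3.03% to 4.39% when any 1 of the other 5 pairs was left out, 1554 of 10391 genes without the C17.2a 24 h pair and 13.4% without all 24 h libraries, with 1 or 2 members called in each of these fits. For higher calls alone the share over all genes was 4.09%, and for lower calls 2.35%, against 0 of 80 members. At an unadjusted p under 0.05 there were 11 members, and over all genes tested 1913. The median shared log2 fold change was 0.04 over the members and -0.01 over all genes tested, and 47 members had a positive and 33 a negative value. The 5 members under the limit were Cox4i2, Cox6a2, Cox8b, Sdhc and Uqcr10, whose highest value was 2.38 RPM (Sdhc in C17.2b with T3 at 24 h). Cox6a2 and Cox8b, the other muscle forms, reached 0.24 and 0.78 RPM in T3 libraries and 2.14 and 1.24 RPM in untreated libraries. Cox7a2, Cox6b2, Cox8c and Ndufa4l2 and the 13 protein genes of the mitochondrial genome are not in the table under these symbols, so they were not analysed. In RNA from whole cultures, fewer cells of a type and less RNA per cell cannot be told apart. Markers of progenitors moved with T3: of 7 in the table, 0 rose and 3 fell, with summed levels of 1318 to 3029 RPM in T3 libraries and 2287 to 5751 RPM in untreated libraries, and their part in the members' changes was not tested.

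Complex I, the NADH dehydrogenase, had 40 tested members and no call, with 21 positive and 19 negative log2 fold changes and a median of 0.01. The highest was Ndufs1, the largest subunit of the iron-sulfur arm. It ranged from 5.38 to 10.26 RPM with T3 (median 8.26) and from 3.98 to 8.28 RPM in untreated cells (median 5.62), with a log2 fold change of 0.42 (SE 0.18, adjusted p 0.272 in limma), positive in 5 of 6 pairs, and 0.18 (SE 0.14) without the 24 h libraries. The lowest was Ndufaf3, an assembly factor. It ranged from 17.62 to 27.89 RPM with T3 (median 19.85) and from 21.05 to 40.82 RPM in untreated cells (median 28.08), was lower with T3 in all 6 pairs, and had a log2 fold change of -0.42 (SE 0.14, adjusted p 0.144 in limma). The groups of both genes overlapped. The core subunits Ndufs7 and Ndufv1, which carry electrons from NADH towards ubiquinone, had 0.05 and -0.12 (SE 0.13 and 0.23). The other assembly factors Ndufaf1, Ndufaf2 and Ndufaf4 had 0.27, 0.05 and 0.21, and Ndufaf1 was higher in all 6 pairs. Ndufa4, grouped here by its name but now described as a subunit of cytochrome c oxidase, had 0.25 (SE 0.14). Ndufs5 has the same 12 values as another symbol of the table, BC002163, so its values are uncertain.

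Complex II, succinate dehydrogenase, is the link between the tricarboxylic acid cycle and the respiratory chain. Its 3 tested members had log2 fold changes of 0.26 (SE 0.20, Sdhb, the iron-sulfur subunit), 0.15 (SE 0.09, Sdha, the flavoprotein) and 0.07 (SE 0.08, Sdhd, a membrane anchor), with no call. Sdhd was higher with T3 in all 6 pairs by at most 0.17. Complex III, which hands electrons to cytochrome c, had 8 tested members and no call, with 4 positive and 4 negative values. Uqcrb, the ubiquinone-binding subunit, was the highest with 0.21 (SE 0.09, adjusted p 0.249 in limma) and was higher with T3 in all 6 pairs, while Uqcrh, the hinge subunit, was the lowest with -0.10 (SE 0.22). The catalytic Cyc1 and Uqcrfs1 (cytochrome c1 and the Rieske protein) had 0.21 (SE 0.18) and -0.03 (SE 0.12), and the core protein Uqcrc1 had 0.02 (SE 0.16).

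Complex IV had 12 tested members, with Cox7a1 as its single call. Cox6c, a small structural subunit, came next, at 1326 to 3522 RPM with T3 (median 1644) and 1184 to 1675 RPM in untreated cells (median 1430). Only the 24 h T3 libraries and the C17.2b 12 h T3 library exceeded the highest untreated one, and the log2 fold change was 0.40 (SE 0.13, adjusted p 0.141 in limma), and 0.18 (SE 0.09) without the 24 h libraries. Cox5a had 585.5 to 1346 RPM with T3 (median 1198) and 593.7 to 1092 RPM in untreated cells (median 935.7), with 0.34 (SE 0.13, adjusted p 0.213 in limma). The C17.2a 24 h pair gave Cox5a its highest difference, 1.04, and the C17.2b 24 h pair gave -0.02; without the 24 h libraries it had 0.25 (SE 0.08, adjusted p 0.0747 in limma). Cox7a2l, a factor that joins complexes III and IV into supercomplexes, was the lowest, with -0.49 (SE 0.20, adjusted p 0.250 in limma). It ranged from 90.52 to 355.8 RPM with T3 (median 187.2) and from 155.8 to 376.2 RPM in untreated cells (median 222.5), and the C17.2a pairs of 12 and 24 h had the lowest values, -0.78 and -1.64. Without the 24 h libraries it had -0.32 (SE 0.11, adjusted p 0.0919 in limma). The subunits with a widely expressed form showed small differences: Cox4i1 had -0.05, Cox5b -0.02, Cox6a1 -0.12, Cox6b1 -0.14 and Cox8a 0.08 (SE 0.08 to 0.14). Cox4nb, which the rule takes in by its name, is now called Emc8 and is no subunit of the oxidase. It was lower with T3 in all 6 pairs, with -0.15 (SE 0.09).

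Complex V, the ATP synthase, had 17 tested members, 13 with a positive and 4 with a negative log2 fold change, and Atp5j as its single call. The catalytic head subunits Atp5a1, Atp5b and Atp5c1 (alpha, beta and gamma) had 0.19, 0.15 and 0.10 (SE 0.09, 0.08 and 0.14), and Atp5a1 was higher with T3 in all 6 pairs. The genes Atp5g1, Atp5g2 and Atp5g3 encode the same mature c subunit of the membrane ring. They had 0.11 (SE 0.10), -0.17 (SE 0.11) and 0.62 (SE 0.24), and none passed. Atp5g3 ranged from 112.4 to 370.8 RPM with T3 (median 257.8) and from 107.9 to 174.6 RPM in untreated cells (median 156.0). It was over 1.5-fold higher with T3 in the C17.2b 24 h pair and in the C17.2a pairs of 6 and 24 h, and lower in both 12 h pairs (adjusted p 0.219 in limma), and its log2 fold change without the 24 h libraries was 0.37 (SE 0.24). Atp5k, the e subunit, was the lowest with -0.20 (SE 0.13).

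**Figure D2:**
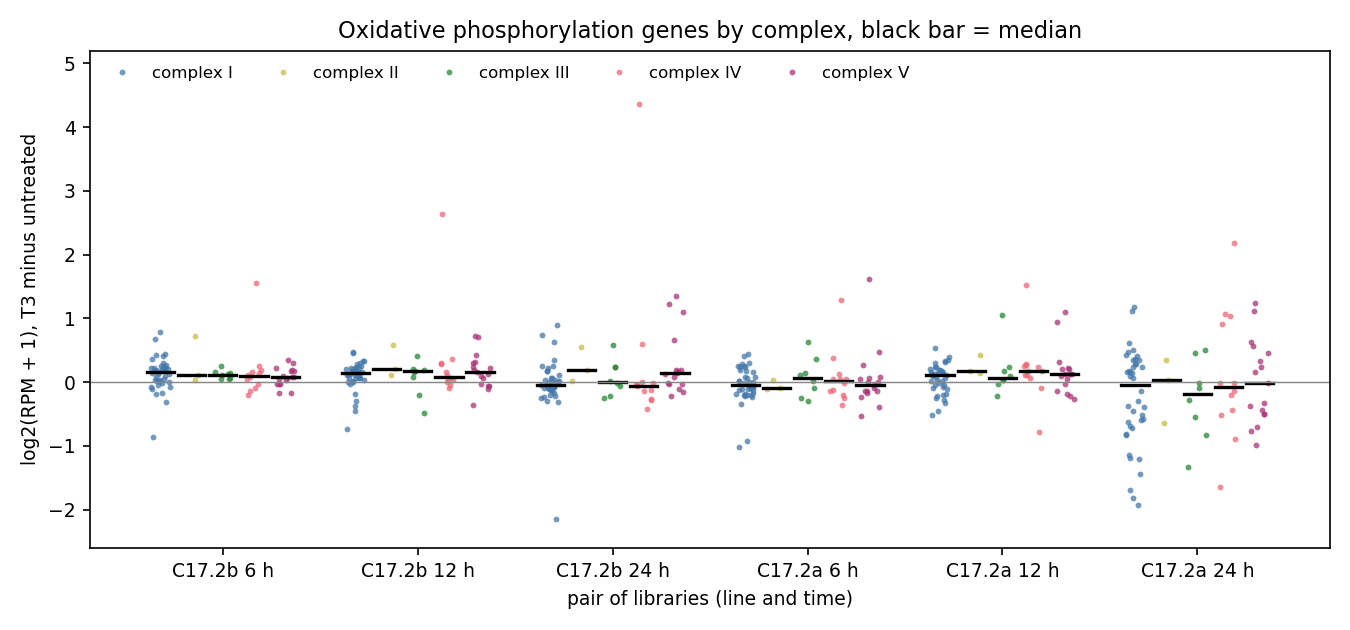
Difference of log2(RPM + 1), T3 minus untreated, for each tested member in each of the 6 pairs, coloured by complex I to V, with the median of each complex as a black bar. The medians lie between -0.19 and 0.20 in every pair, the C17.2a 24 h pair has the widest spread in complexes I, II, III and V, and the highest point of each pair is Cox7a1 except in the C17.2a 6 h pair, where it is Atp5g3.

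Single pairs were described by the members past 1.5-fold, with no test. In C17.2b these were 5, 5 and 10 of 80 at 6, 12 and 24 h, against 14.3%, 12.9% and 17.1% of all genes tested. In C17.2a they were 5, 5 and 31 of 80, against 13.0%, 11.2% and 46.9% of all genes. The members thus lay below the share of all genes in each of the 6 pairs. In the C17.2b 24 h pair 9 members were higher and 1 lower with T3, against 11.3% and 5.87% of all genes. In the C17.2a 24 h pair 10 were higher and 21 lower, against 16.3% and 30.6% of all genes. This balance depends on the scaling: after median-ratio scaling 18 members were higher and 14 lower in that pair, against 24.0% of all genes in either direction. Of the 40 tested members of complex I 13 were lower there on the RPM scale, which is 32.5% and near the share of all genes. The lower one in C17.2b was Ndufb11, an accessory subunit of complex I, with 23.13 RPM with T3, against 105.7 RPM in untreated cells. The difference had the same sign in all 6 pairs for 8 members: Atp5a1, Atp5j, Cox7a1, Ndufaf1, Sdhd and Uqcrb were higher with T3 (6 of 80, or 7.50%, against 8.06% of all genes), and Cox4nb and Ndufaf3 were lower (2 of 80, against 6.26% of all genes).

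Summed over the members of a complex, the largest difference between T3 and untreated cells was that of complex IV in the C17.2a 24 h pair. The ratio of T3 to untreated RPM ran over the 6 pairs from 0.949 to 1.12 for complex I, from 0.954 to 1.15 for complex II, from 0.962 to 1.11 for complex III, from 0.964 to 1.29 for complex IV and from 1.01 to 1.14 for complex V. The mean log2 ratios were 0.01, 0.12, 0.06, 0.11 and 0.09 (SD 0.08, 0.10, 0.09, 0.15 and 0.07, n = 6 pairs). Complex V was higher with T3 in 6 of 6 pairs, and in 5 of 6 after median-ratio scaling of the libraries. The ratio of 1.29 for complex IV was that of the C17.2a 24 h pair, where the sum was 11496 RPM with T3, against 8937 RPM in untreated cells. After scaling the ratios of that pair were 1.096, 1.33, 1.17, 1.48 and 1.22 for complexes I to V, so that complex I turned from lower to higher with T3. In the 4 pairs of 6 and 12 h the ratios ran from 0.954 to 1.14 over all complexes on the RPM scale and from 0.962 to 1.08 after scaling. These sums are weighted towards members with many tags, and no test was made on them.

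The lines were compared next, since they carry different receptors. With T3 terms for each line, 1 of 80 members passed in C17.2b and 0 of 80 in C17.2a, against 3.11% and 1.37% of all genes tested. At an unadjusted p under 0.05 there were 3 members in C17.2b and 8 in C17.2a, against 1373 and 1749 of the 10577 genes tested. The call in C17.2b was Cox7a1, with a log2 fold change of 2.85 (SE 0.46, adjusted p 0.0150 in limma). It was lost with a pseudocount of 5 (adjusted p 0.114), without the C17.2b 12 h pair (0.127) and without the C17.2b 24 h pair (0.0653), and without the C17.2a 24 h pair Atp5j passed beside it. In C17.2a Cox7a1 had 1.66 (SE 0.46, adjusted p 0.141 in limma), and in a fit without any 24 h library it passed there too. The difference between the lines for Cox7a1 was 1.19 (SE 0.65, adjusted p 0.722 in limma), so a larger response in C17.2b was not shown. Atp5j had 0.74 in C17.2b and 0.89 in C17.2a (SE 0.25 each), with limma adjusted p of 0.219 and 0.149, and the lines differed by -0.15 (SE 0.35).

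After Cox7a1 and Atp5j, the smallest p-values in C17.2b belonged to Sdhb (0.62, SE 0.23), Atp5g1 (0.29, SE 0.13) and Ndufaf1 (0.33, SE 0.16). In C17.2a they belonged to Cox7a2l (-0.88, SE 0.23, adjusted p 0.136 in limma), Ndufaf3 (-0.66, SE 0.18) and Cox5a (0.56, SE 0.16). For the difference of the responses, 0 of 80 members passed, against 0.0% of all genes tested, with 3 members and 583 genes at an unadjusted p under 0.05. The 3 were Ndufa7 (0.45, SE 0.16), Atp5k (0.51, SE 0.21) and Cox7a2l (0.78, SE 0.33), all at an adjusted p of 0.722 in limma. All 3 differences were positive, as was the median over all genes tested, 0.12, which became -0.00 after median-ratio scaling.

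By time, 0 of 80 members passed at 6 h, 0 at 12 h and 1 at 24 h, against 0.161%, 0.492% and 1.06% of all genes tested. At an unadjusted p under 0.05 there were 2, 3 and 16 members, against 805, 838 and 1678 of the 10577 genes tested. Cox7a1 had 1.42, 2.08 and 3.27 (SE 0.52 each) at 6, 12 and 24 h, and its adjusted p in limma was 0.517, 0.232 and 0.0428. The call at 24 h was lost under 7 of 12 alternatives, with adjusted p from 7.99e-05 to 0.22 over all of them. Atp5j had 0.32, 0.83 and 1.29 (SE 0.21 each), with an adjusted p of 0.0501 at 24 h in limma. Cox6c had 0.08, 0.29 and 0.83 (SE 0.16 each), with an adjusted p of 0.0774 at 24 h in limma. The change of the response between 24 h and 6 h passed for 0 members, against 0.0% of all genes tested, with 8 members and 593 genes at an unadjusted p under 0.05. It was 1.85 (SE 0.74) for Cox7a1, 0.97 (SE 0.30) for Atp5j, 0.75 (SE 0.23) for Cox6c, 1.46 (SE 0.43) for Ndufa6, -1.21 (SE 0.39) for Ndufa3 and -1.46 (SE 0.50) for Ndufb11, all at an adjusted p of 0.726 in limma. These counts depend on the 24 h pairs: when 1 of them is left out, the 24 h response rests on the other alone. The C17.2b 24 h pair gave 4.37 for Cox7a1, 1.34 for Atp5j and -2.14 for Ndufb11. The C17.2a 24 h pair gave 2.18, 1.24 and -0.59 for the same genes. When any 1 of the 4 pairs of 6 or 12 h was left out, 0 members passed at 24 h. When either of the 24 h pairs was left out, Cox7a1 and Ndufa3 passed as higher at 6 h, and Cox7a1, Atp5j and Atp5c1 at 12 h. The share of all genes that passed in these fits is not given here, so these calls are no result about the members as a set.

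Without T3 the lines differed in 1 of 79 tested members. Uqcrb was lower in C17.2b, with 84.33, 93.72 and 64.70 RPM at 6, 12 and 24 h in C17.2b, against 134.6, 113.8 and 96.05 RPM in C17.2a. The lines did not overlap, although the lowest C17.2a value was close to the highest C17.2b value. The log2 fold change was -0.50 (SE 0.13, adjusted p 0.0345 in limma). The share of all genes tested that differed was 8.85%, and 5.92% were lower in C17.2b. The Uqcrb call was lost under 8 of 13 alternatives, with adjusted p from 0.0267 to 1. Cyc1 had 45.73, 42.60 and 151.4 RPM in C17.2b, against 39.12, 23.63 and 107.0 RPM in C17.2a, with 0.51 (SE 0.14, adjusted p 0.0526 in limma). Cox4nb had 0.38 (SE 0.12), Atp5s -0.43 (SE 0.17) and Cox4i1 0.48 (SE 0.19), and none of them passed. After median-ratio scaling Cyc1 and Cox4nb passed as higher in C17.2b and Uqcrb did not pass.

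More members passed for time than for T3. In untreated cells 49 of 79 members (62.0%) differed between 24 h and 6 h, 40 higher and 9 lower at 24 h. Of all 10192 genes tested 56.1% did, 43.0% higher and 13.1% lower, so the members' share was near that of the whole table. The median log2 fold change was 0.54 over the members and 0.40 over all genes tested. Median-ratio scaling moves the median of all genes by -0.42, to -0.02, and that of the members to 0.08; 26 members were then higher and 20 lower, against 24.4% and 26.3% of all genes tested. The 2 libraries of each time come from the 2 lines, and time in culture and any handling of the 24 h libraries cannot be told apart.

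By complex, 17 members of complex I rose and 4 fell of 40, 3 rose and 0 fell of 3 in complex II, 4 rose and 2 fell of 8 in complex III, 5 rose and 2 fell of 11 in complex IV, and 11 rose and 1 fell of 17 in complex V. Cox6a1, the widely expressed form of subunit 6a of the oxidase, had the largest increase on the scale of log2(RPM + 1). This scale understates changes of members with few tags at 6 h, such as Atp5h. Cox6a1 had 300.04 and 545.2 RPM at 24 h in untreated C17.2b and C17.2a, against 67.20 and 64.56 RPM at 6 h, with a log2 fold change of 2.60 (SE 0.24, adjusted p 3.71e-05 in limma) and 2.13 after scaling. Uqcr11, a small subunit of complex III, had 1301 and 1322 RPM at 24 h in untreated C17.2b and C17.2a, against 298.8 and 385.0 RPM at 6 h, with 1.95 (SE 0.18, adjusted p 3.63e-05 in limma) and 1.48 after scaling. For both genes the 12 h values, 87.26 and 70.27 RPM for Cox6a1 and 320.4 and 298.7 RPM for Uqcr11, stayed near those of 6 h. In the ATP synthase, Atp5o, the protein that joins the head to the peripheral stalk, had 897.4 and 960.1 RPM at 24 h in untreated C17.2b and C17.2a, against 253.0 and 226.0 RPM at 6 h (1.95, SE 0.16, adjusted p 2.47e-05 in limma). Atp5g1 had 464.3 and 544.2 RPM at 24 h, against 138.9 and 159.7 RPM at 6 h (1.75, SE 0.14, adjusted p 2.51e-05 in limma). Atp5h, the d subunit of the same stalk, had 6.24 and 9.08 RPM at 24 h, against 0.84 and 0.62 RPM at 6 h (2.31, SE 0.29), and Atp5j had 1.98 (SE 0.39). Atp5e and Atp5h met the limit of 1 RPM in 3 untreated libraries only with the 24 h libraries, where they were high.

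Genes that fell with time stood in the same complexes. Ndufc2, an accessory subunit of complex I, had 38.66 and 39.81 RPM at 24 h in untreated C17.2b and C17.2a, against 121.3 and 137.2 RPM at 6 h, with -1.69 (SE 0.17, adjusted p 4.81e-05 in limma). Cox6b1, which joins the monomers of the oxidase, had 647.7 and 519.0 RPM at 24 h, against 1857 and 1913 RPM at 6 h, with -1.70 (SE 0.21). Atp5a1, the alpha subunit, had 290.9 and 301.8 RPM at 24 h, against 816.8 and 767.1 RPM at 6 h, with -1.41 (SE 0.17). All 3 also passed as lower after scaling. The partner of Atp5a1 in the catalytic head, Atp5b, moved the other way, with 3118 and 2846 RPM at 24 h, against 952.2 and 1135 RPM at 6 h (1.52, SE 0.22). In complex III the core proteins parted in the same manner, with 1.64 (SE 0.16) for Uqcrc1 and -0.96 (SE 0.16) for Uqcrc2. The remaining members that fell were Ndufc1 (-1.02), Ndufa1 (-0.91), Ndufaf4 (-0.90), Cox5a (-0.65) and Uqcrb (-0.43).

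Among core subunits, Ndufs7 rose (1.19, SE 0.19), while Ndufs1 (-0.55, SE 0.25) and Ndufv1 (0.45, SE 0.21) did not pass. Cyc1 (1.57, SE 0.17) and Uqcrfs1 (1.13, SE 0.17) rose, as did Sdhd (1.21, SE 0.18), Sdhb (1.02, SE 0.30), Sdha (0.51, SE 0.15) and Atp5c1 (1.66, SE 0.17). In the oxidase Cox5b (0.83, SE 0.18), Cox7c (1.62, SE 0.17) and Cox8a (1.18, SE 0.20) rose and Cox4i1 had -0.24 (SE 0.24). Of the c subunit genes Atp5g2 (0.70, SE 0.18) rose and Atp5g3 (0.20, SE 0.24) did not pass. Of these genes Sdha, Sdhb, Cox5b and Atp5g2 did not pass after scaling, while Ndufs1 (-0.94, adjusted p 0.0135 in limma) and Cox4i1 (-0.71, adjusted p 0.0322 in limma) then passed as lower. Over all members scaling removed 14 calls, all higher, and added 11, all lower, and 26 higher and 9 lower calls were shared.

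**Figure D3:**
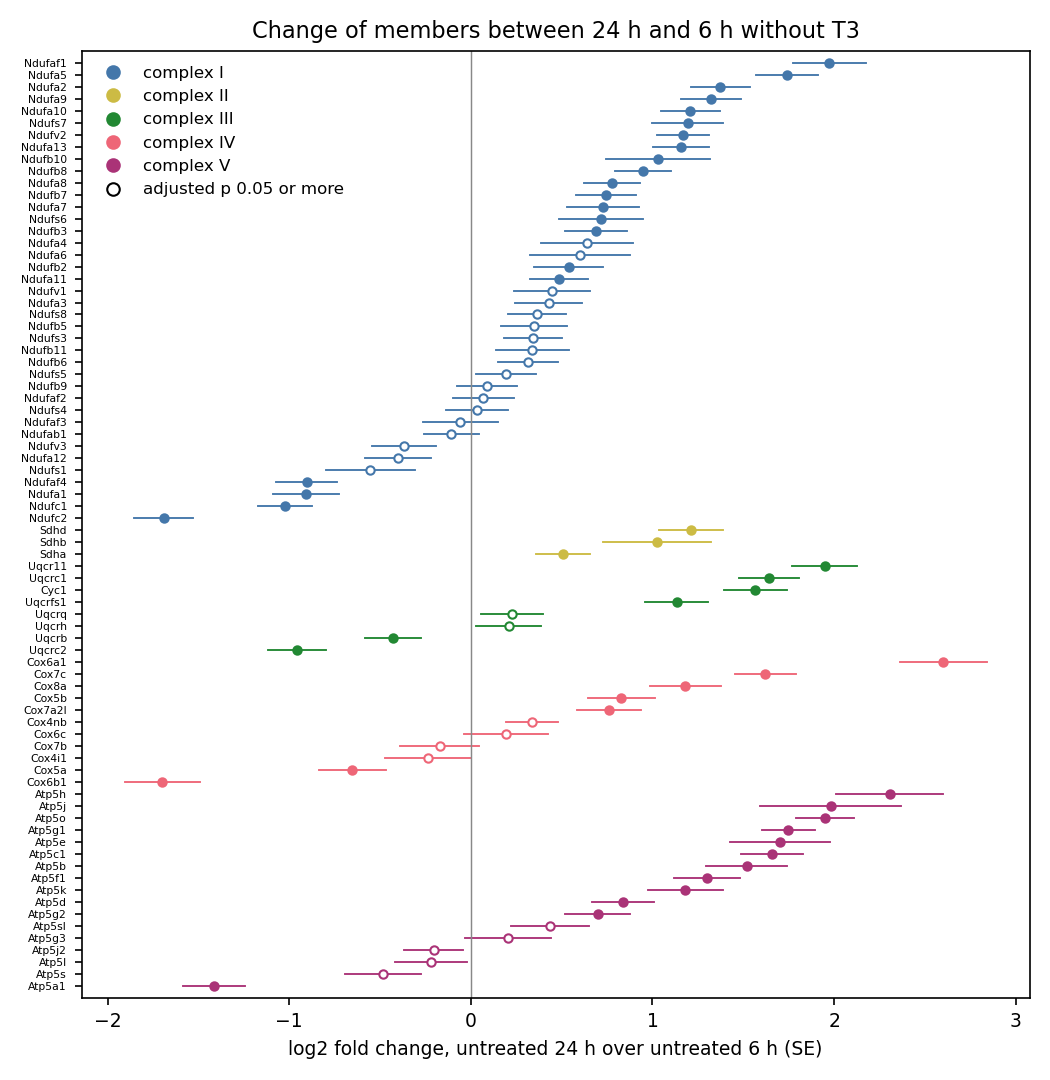
Log2 fold change of 78 of the 79 tested members between 24 h and 6 h in untreated cells, grouped by complex, with bars of 1 SE from the limma fit. Filled points have an adjusted p under 0.05 (40 to the right and 9 to the left of 0). Cox6a1 is the highest point and Cox6b1 the lowest.

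The same separation by time was in the T3 libraries. For 35 of 80 members all 4 libraries of 24 h lay above all 8 earlier ones, and for 7 all 4 lay below, against 26.5% and 6.60% of all genes tested. After median-ratio scaling these were 23 and 12 members, against 13.5% and 14.2% of all genes. The limit of 1 RPM in 3 libraries can be met by 24 h libraries alone, which favours genes high at 24 h, among members and all genes alike. Atp5e and Atp5h of complex V, both among the 35, met it only through the 24 h libraries. They had 0.27 to 1.31 RPM and 0.36 to 1.91 RPM in the earlier ones. Atp5a1, Cox6b1, Ndufa1, Ndufa12, Ndufc1, Ndufc2 and Uqcrc2 were the 7 below on the RPM scale, and all 7 stayed below after scaling. Complex V had 11 of 17 members above, among them Atp5b at 2846 to 3581 RPM at 24 h and 952.2 to 1266 RPM earlier. Summed by complex, the 24 h libraries had 5799 to 6230 RPM of complex I, 277.0 to 390.8 RPM of complex II, 2455 to 2627 RPM of complex III, 8937 to 11496 RPM of complex IV and 7896 to 8630 RPM of complex V. The earlier libraries had 5323 to 6200 RPM of complex I, 155.2 to 196.9 RPM of complex II, 1087 to 1328 RPM of complex III, 7543 to 9743 RPM of complex IV and 4073 to 4960 RPM of complex V. The sums of complexes II, III and V did not overlap between 24 h and the earlier times, on the RPM scale or after scaling, while those of complexes I and IV overlapped on the RPM scale. After scaling complex I was lower at 24 h, with 4416 to 5092, against 5931 to 6680 earlier.

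**Figure D4:**
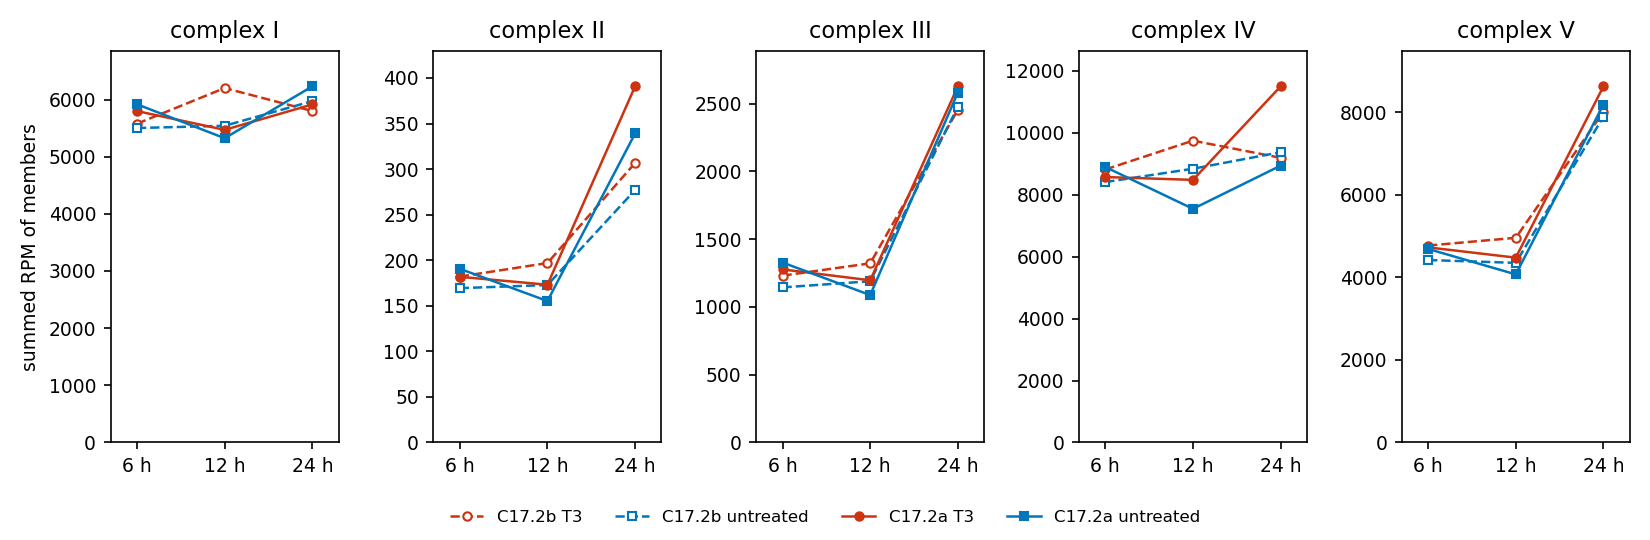
Summed RPM of the members of complexes I to V at 6, 12 and 24 h, each panel on its own axis from 0, with T3 in red and untreated in blue, and with open markers and broken lines for C17.2b, filled markers and solid lines for C17.2a. Complexes II, III and V are higher at 24 h in all 4 series, and the ratio of T3 to untreated lies between 0.949 and 1.15 except for complex IV in C17.2a at 24 h, with 1.29.

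Genes of the same pathway outside the symbol rule were counted from fixed lists for the shared T3 response. Of 11 electron carriers and transporters of adenine nucleotides and phosphate, 0 rose and 0 fell, with a median of 0.07. Their smallest p-values belonged to Slc25a3, the phosphate carrier (0.15, SE 0.11), Etfdh (0.16, SE 0.12) and Cycs, cytochrome c (0.21, SE 0.16). Of 25 assembly factors 0 rose and 0 fell, with a median of 0.01. Ecsit, a complex I assembly factor, had 0.37 (SE 0.10, adjusted p 0.0559 in limma), Lrpprc, which stabilises mitochondrial mRNA, 0.49 (SE 0.17) and Cox11 0.33 (SE 0.13). Of 14 genes of the tricarboxylic acid cycle 0 rose and 0 fell, and Idh2 had -0.28 (SE 0.10, adjusted p 0.157 in limma), Idh3a 0.40 (SE 0.18) and Idh3b 0.21 (SE 0.10). Of 16 regulators of mitochondrial gene expression 1 rose. It was Peo1, the mitochondrial DNA helicase now called Twnk, at 37.93 to 74.57 RPM with T3 and 27.98 to 56.70 RPM in untreated cells (0.37, SE 0.08, adjusted p 0.0284 in limma). Polrmt, the mitochondrial RNA polymerase, had 0.27 (SE 0.11) and Tfb2m, its transcription factor, 0.24 (SE 0.11). Ppargc1a, the coactivator PGC-1 alpha, did not exceed 0.57 RPM with T3 or 0.31 RPM in untreated cells and was not tested. These shares stand against 4.09% higher and 2.35% lower over all genes tested.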

How the data were processed

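The 12 libraries are digital gene expression libraries, per the series title, made from polyA RNA of C17.2 cells, per the labels; they count short tags of transcripts. The authors deposited 1 table of 12774 symbols with 12 columns of RPM; this unit follows from the column sums, which are the same in every library within rounding and are those of this unit. The submitters' processing notes name mm9. The aligner, the rule assigning tags to genes and the filters are not given in the sources used here. N/A was read as 0. In each library 89.3% to 94.3% of low values equalled a whole number of tags (tolerance 0.0055 RPM), which is too few to recover counts, and depth is implied from the step. The 3-tag level covers counting error only.

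Tests used limma 3.58.1 in R 4.3.3 on log2(RPM + 1) (lmFit and trended eBayes). Genes entered a fit with 1 RPM or more in 3 or more of its libraries, and p-values were adjusted over all of them by Benjamini-Hochberg, with a threshold of 0.05. T3 fits used all 12 libraries with the pair as a block, and untreated fits 6 libraries with time or line as a block. Separate cultures are not stated in the labels. The p-values of the T3 fits measure the spread between pairs. Those of the untreated fits measure how the difference between the lines varied over the times, not a spread between separate cultures. A count test had been planned for counts; for RPM limma took its place. The fits were tested on simulated data. Alternatives were median-ratio scaling, other filters and pseudocounts, no block, each line alone, leaving out each pair or untreated library, and, added after seeing the data, leaving out the 24 h libraries.

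The members, the lists and the rule for named genes were chosen with earlier results of these data known. Named were members past the threshold for T3, the highest and lowest of each complex, up to 5 smallest p in every other comparison, catalytic, core and isoform subunits whatever their values, and 3 genes of each list; the values of 1 member are not reported here, though it stays in the counts. Others named with the change over time or for their sign were chosen after their values were seen. Of the 85 symbols 81 were current in RefSeq and 4 matched a unique synonym.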

Additional observations from a re-analysis of the deposited data

How the results depend on the processing

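The number of members called moved under these settings. With a pseudocount of 5 it was 0 for the shared T3 response (against 5.91% of all genes tested), 0 in C17.2b and 2 at 24 h. With a pseudocount of 0.5 it was 0 at 24 h. With median-ratio scaling it was 2 at 24 h, both higher, against 0.751% of all genes higher and 0.399% lower. Between untreated lines it was then 2, both higher in C17.2b, against 3.46% of all genes higher and 4.51% lower. Without a filter it was 0 for both comparisons. Without the block it was 1 for the shared response (Cox7a1), against 7.70% of all genes, and 0 between untreated lines. Without the 24 h libraries it was 2 in C17.2b (Cox7a1 higher, Ndufa6 lower), 1 in C17.2a (Cox7a1) and 0 between untreated lines. In that setting 13.4% of all genes passed for the shared response, and the shares for each line are not given here. Past 2-fold, single pairs had 1, 1 and 5 members in C17.2b at 6, 12 and 24 h and 3, 3 and 16 in C17.2a. With a pseudocount of 5, past 1.5-fold, they had 1, 2 and 6 in C17.2b, and 3 in C17.2a at 6 h. The share of all genes past these cuts is not given here. Any count in this paragraph without such a share beside it is no result about the members as a set. Why the counts moved under these settings was not tested.

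Leaving out 1 pair gave 1 to 2 members for the shared response, 0 to 2 in C17.2b, 0 to 0 in C17.2a and for the difference of the lines, 0 to 2 at 6 h, 0 to 3 at 12 h, 0 to 38 at 24 h and 0 to 23 for 24 h minus 6 h. Leaving out 1 untreated library gave 0 to 2 between lines (Ndufb11 joined Uqcrb as lower in C17.2b without either 12 h library) and 38 to 51 for 24 h against 6 h, where no alternative moved the count by over 1.5 times. For fits without 1 pair or 1 untreated library, the share of all genes that passed is given only for the shared response. The other counts from these fits, up to 38 at 24 h, are therefore no result about the members as a set. When 1 of the 24 h pairs is left out, the 24 h response rests on the other pair alone. The line difference of Atp5j, -0.15, ran from -0.45 to 0.14 when 1 pair was left out, and was 0.03 without the C17.2a 24 h pair and 0.14 without the C17.2b 6 h pair. The Cox7a1 shared call held under 12 of 13 alternatives and that of Atp5j under 8 of 13. Of 156 alternative values for counts and complex sums, 112 kept their side or size and 44 moved.

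The labels give no replicate numbers. The T3 fits were paired by line and time, and the untreated fits had time or line as the block.

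With 1 library per group and 2 to 5 residual degrees of freedom, small changes of single members were not detectable here. The untreated C17.2b value of Cox7a1 at 12 h lies under the level of 3 tags, and the 5 untested members did not reach 1 RPM in 3 libraries. Changes with time depend on the scaling, and the submitters' processing is known only in part.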

Other observations

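Other genes of mitochondrial energy metabolism also differed between 24 h and 6 h without T3, when 43.0% of all genes tested rose and 13.1% fell. Of 14 genes of the tricarboxylic acid cycle 3 rose and 7 fell, with a median log2 fold change of -0.48, below the 0.40 of all genes tested. All 3 subunits of the NAD-dependent isocitrate dehydrogenase fell in limma, Idh3a by 1.12, Idh3b by 0.85 and Idh3g by 1.40 on the log2 scale, as did Mdh2, the malate dehydrogenase of the matrix. Ogdh, Suclg1 (1.42) and Suclg2 (0.95), of the oxoglutarate and succinyl-CoA steps, rose, while Sucla2 and Dld of the same steps fell by 0.86 and 0.82 and Dlst had -0.28.

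Of 11 electron carriers and transporters 6 rose and 2 fell over the same interval. The 3 channels of the outer membrane, Vdac1 (1.25), Vdac2 (0.69) and Vdac3 (1.06), rose, as did Cycs (0.55) and the carriers Slc25a3 (0.63) and Slc25a4 (0.61), while the ADP/ATP carrier Slc25a5 fell by 1.29 and Etfdh by 0.69. Of 25 assembly factors 7 rose and 4 fell, and of 15 regulators 5 rose and 2 fell, with Tfb2m the highest (2.09) and Nrf1 at 0.82. These lists were counted without a test of the list, and how their members stand relative to the shift of all genes after scaling was not tested.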
